A study of Mus musculus with 4 samples.

Results

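The axon guidance genes of the ephrin-Eph and Slit-Robo families were followed in the cerebral cortex of newborn mice that carried floxed Mkk7 alleles with or without Emx1-Cre. Members were all genes of the deposited table whose symbol is that of an Eph receptor, an ephrin, a Slit, a Robo or an Srgap, which gave 32 of 55414 genes: 9 EphA and 5 EphB receptors, 5 ephrin-A and 3 ephrin-B ligands, 3 Slits, 4 Robos and 3 Srgaps. Mkk7, whose official symbol is Map2k7, encodes a kinase that activates JNK. The cKO group (Mkk7flox/flox Emx1-Cre) had 2 libraries, cKO 2 and cKO 3. The Control group (Mkk7flox/flox without the Cre) also had 2 libraries, Control 2 and Control 3, so the floxed alleles were shared by all mice. All mice were C57BL/6J at postnatal day 1. Emx1-Cre recombines in dorsal telencephalic progenitors and their excitatory neurons and glia. Interneurons, vessels and most meningeal cells of the same tissue are not derived from them. Only one group carried Cre, so loss of Mkk7 and presence of Cre cannot be told apart.

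Ephrins and Eph receptors signal by contact between neighbouring cells. Ephrin-A ligands are held to the membrane by a lipid anchor and mainly bind EphA receptors, while ephrin-B ligands span the membrane and mainly bind EphB receptors. Binding signals into both cells and mostly repels growing axons, and in the cortex these proteins take part in mapping thalamic axons, in the crossing of callosal axons and in synapse formation. Slits are secreted repellents that bind Robo receptors and keep axons and migrating neurons out of the midline and of other territories. Srgaps are GTPase-activating proteins that bind the cell-inner part of Robo and shape the membrane of migrating neurons.

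The libraries held between 19421470 and 22511175 estimated counts and 21598 to 21929 genes with counts. Markers of the labelled tissue were present: 12 of 12 genes of cortical excitatory neurons were detected, with a summed level of 1022 and 1146 TPM (the deposited length-scaled transcript level) in cKO 2 and cKO 3, against 817 and 969 TPM in Control 2 and Control 3. Map2k7 RNA itself was no lower in cKO libraries, at 47.9 and 48.2 CPM (TMM-scaled counts per library of 1e+06), against 38.4 and 30.4 CPM in Control libraries. These values sum over the whole gene, and the floxed exons are not named in the labels, so the gene does not check the labels. Markers of striatal projection neurons summed to 117 and 147 TPM in cKO libraries and to 459 and 328 TPM in Control libraries. In CPM, 14 of 14 were lower in both cKO libraries than in both Control libraries, against 22.2% of all genes tested. Markers on the interneuron list summed to 1684 and 1458 TPM in cKO libraries and 2023 and 1871 TPM in Control libraries. In CPM, 8 of 10 were lower in both cKO libraries than in both Control libraries. Npy and Sst made up most of this sum. Log2 fold changes ran from -2.42 to -0.03, with -0.03 for Npy, -0.18 for Lhx6 and -0.67 for Sst. The list also holds genes of GABA neurons in general, such as Gad1 and Gad2, so it is not separate from the striatal list. Of the 12 excitatory neuron markers, 6 were higher in cKO without overlap in CPM (22.0% of all genes were) and 1 was lower. Thalamic markers were scarce, at 10.8 and 15.6 TPM in cKO libraries and 18.9 and 19.1 TPM in Control libraries. Choroid plexus markers differed between libraries of one group, at 448 and 9.83 TPM in cKO 2 and cKO 3 and at 1103 and 18.1 TPM in Control 2 and Control 3. Most of this was Ttr, at 429 and 7.35 TPM in cKO 2 and cKO 3 and 1067 and 10.1 TPM in Control 2 and Control 3. Folr1, Otx2 and Clic6 followed the same split, while Kcnj13 and Kl did not do so in Control libraries. Library cKO 3 had 0 counts of Xist and 985 of the Y-linked gene Ddx3y. The other 3 libraries had 1004 to 1218 counts of Xist and 0 of Ddx3y, so sex differs within the cKO group. In bulk tissue, fewer cells of a type, less RNA per cell and uneven dissection of neighbouring tissue cannot be told apart.

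Promoter sequences are shown for 4 members, chosen after their values were seen, though no member passed the test. Epha6 and Epha3 had the smallest p-values, and Epha2 was read only in Control libraries. Robo1 lies on the chromosome of Epha6 and Epha3, with both cKO libraries above both Control libraries in CPM. The same holds for Ephb3 and Robo2, whose sequences are not shown. Each sequence holds the 250 bases before the RefSeq start of the gene on its own strand, 5′ to 3′ (build GRCm38.p6). Capitals mark matches on either strand to any of 5 motifs. The GC box was searched as GGGCGG, the CCAAT box by the letters of its name and the TATA box as TATAAA. The CRE, bound by CREB and ATF factors, was searched as TGACGTCA and the AP-1 site, bound by Fos and Jun, as TGANTCA. The windows are chr16:60605532-60605781 on the minus strand for Epha6, chr16:63864176-63864425 on the minus strand for Epha3, chr16:72662899-72663148 on the plus strand for Robo1 and chr4:141300971-141301220 on the plus strand for Epha2.
Epha6: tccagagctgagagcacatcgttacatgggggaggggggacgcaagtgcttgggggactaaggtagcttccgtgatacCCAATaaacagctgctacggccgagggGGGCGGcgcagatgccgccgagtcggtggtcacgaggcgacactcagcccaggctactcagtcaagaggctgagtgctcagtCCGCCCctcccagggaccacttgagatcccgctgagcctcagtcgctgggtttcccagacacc
Epha3: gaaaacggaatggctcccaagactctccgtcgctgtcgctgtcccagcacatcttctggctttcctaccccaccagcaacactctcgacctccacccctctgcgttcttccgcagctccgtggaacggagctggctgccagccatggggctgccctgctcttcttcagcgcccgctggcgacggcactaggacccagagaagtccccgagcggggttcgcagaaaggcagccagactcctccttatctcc
Robo1: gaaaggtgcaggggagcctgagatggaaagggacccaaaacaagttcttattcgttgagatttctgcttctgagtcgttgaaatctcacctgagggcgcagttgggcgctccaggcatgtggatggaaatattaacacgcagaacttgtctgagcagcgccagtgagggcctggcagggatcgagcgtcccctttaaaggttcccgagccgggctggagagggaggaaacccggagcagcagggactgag
Epha2: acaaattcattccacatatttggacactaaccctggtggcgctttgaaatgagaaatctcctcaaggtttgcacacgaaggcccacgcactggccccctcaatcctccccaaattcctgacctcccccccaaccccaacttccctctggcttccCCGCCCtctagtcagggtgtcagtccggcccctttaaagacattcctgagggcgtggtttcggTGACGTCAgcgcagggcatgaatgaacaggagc

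In these windows Epha6 had 1 CCAAT box and 2 GC boxes, Epha2 had 1 GC box and 1 CRE, and Epha3 and Robo1 held none of the 5 motifs. RefSeq windows were found for 30 of the 32 members, with 35 start sites in all. Member windows were rich in CpG, with a median GC content of 64.0% against 52.4% over 32851 windows of all genes, and a median CpG ratio (observed over expected from base content) of 0.683 against 0.373. A GC box stood in 25 of 35 member windows, against 32.7% of all windows. A CCAAT box stood in 14 of 35, against 33.8%, and a TATA box in 3 of 35, against 12.4%. None of the 35 held an AP-1 site, which 6.75% of all windows did, and 1 (Epha2) held a CRE, against 1.55%. These are matches of letters in a short window and do not show binding.

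Of the 30 tested members, 18 had a mean of at least 10 TPM in the newborn cortex. The transmembrane ligand ephrin-B3 was the most abundant: Efnb3 stood at 67.9 and 87.7 TPM in cKO libraries and 80.2 and 66.3 TPM in Control libraries. Epha5, a receptor for ephrin-A ligands, followed with a mean over all libraries of 42.6 TPM. Efna3, Epha4, Epha7, Efna2, Efnb2 and Efnb1 came next, with means between 38.6 and 30.4 TPM. Ephb1 and Ephb6 stood at 29.0 and 28.4 TPM; EphB6 lacks kinase activity. Next were Robo2, the most abundant Robo, at 21.3 TPM and Srgap2 at 17.7 TPM. At the low end were Slit2 and Slit3 (2.18 and 2.08 TPM), Epha10, which is also thought to lack kinase activity (1.25 TPM), and Robo3 (0.244 TPM), which acts in commissural axons of the hindbrain and spinal cord. Neighbours in this order were often within the spread between libraries: Ephb1 ranged from 26.8 to 31.2 TPM and Ephb6 from 26.0 to 29.9 TPM.

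Summed over families, the levels of both groups lay close together. The 14 Eph receptors gave 212 and 254 TPM in cKO 2 and cKO 3, against 201 and 216 TPM in Control 2 and Control 3. The 8 ephrins gave 229 and 256 TPM in cKO libraries, against 236 and 231 TPM in Control libraries. Ligand and receptor RNA were thus present in similar amounts, and cKO 3 was the highest library for both sums. The 4 Robos summed to 33.9 and 41.4 TPM in cKO libraries and 34.3 and 36.4 TPM in Control libraries, and the 3 Slits to 8.28 and 15.8 TPM in cKO libraries and 10.7 and 12.0 TPM in Control libraries. Srgap RNA was lowest in cKO 2, at 27.9 TPM, with 42.6 TPM in cKO 3 and 43.6 and 38.4 TPM in Control libraries. No test was run on these sums.

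**Figure D1:**
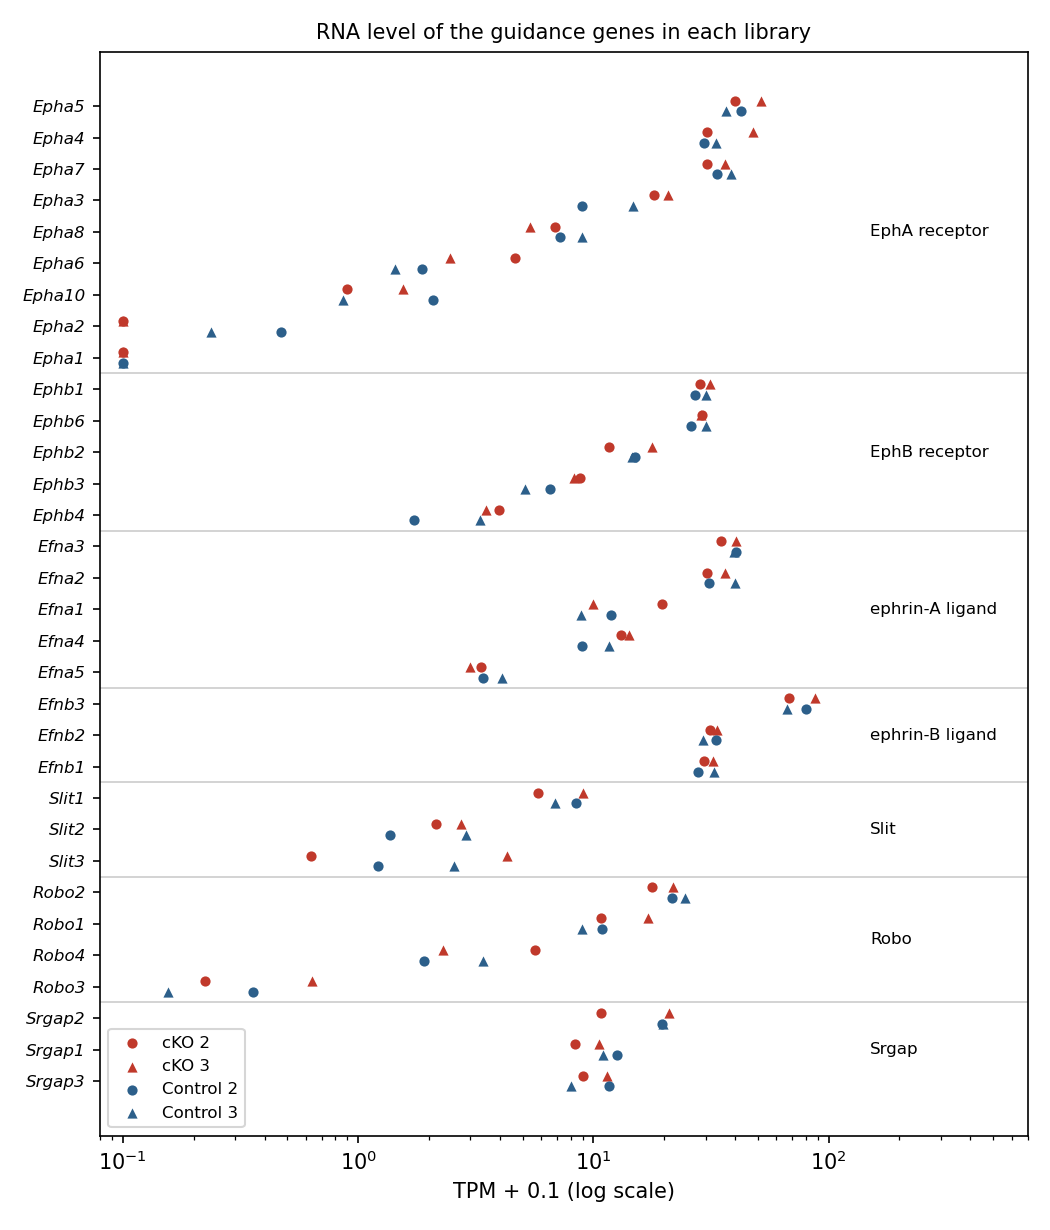
RNA level of each of the 32 members in each library, as deposited TPM plus 0.1 on a log axis, with cKO libraries in red above Control libraries in blue (circles, replicate 2; triangles, replicate 3). Levels run from Efnb3 (mean 75.5 TPM) to Epha1 (no counts), and points at 0.1 are libraries listed at 0.

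Between genotypes no member passed the test. Of the 32 members, 30 had enough counts to be tested, and 0 of 30 had an adjusted p below 0.05 with edgeR's quasi-likelihood test, where 0.047% of all 17017 genes tested did (8 genes). DESeq2, which called 1.09% of all genes, and limma-voom also called 0 members. At an unadjusted p below 0.05 there were 2 members, Epha6 and Epha3, both higher in cKO, or 6.67% of the members against 10.9% of all genes. In all, 21 of 30 had a positive log2 fold change (49.8% of all genes did), with a median of 0.09 against -0.002 for all genes. In CPM, both cKO libraries lay outside the range of both Control libraries for 7 members higher in cKO (23.3%, against 22.0% of all genes) and for 2 lower in cKO (6.67%, against 22.2%). In TPM the same held for 5 members higher (16.7%, against 20.1% of all genes) and 3 lower in cKO (3 of 30, against 21.0%). Shares higher in cKO were thus near the background. The cKO libraries differ in sex and so did not come from a single animal. For the Control libraries the labels do not say, so p-values measure the spread between these libraries, which may be partly technical.

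**Figure D2:**
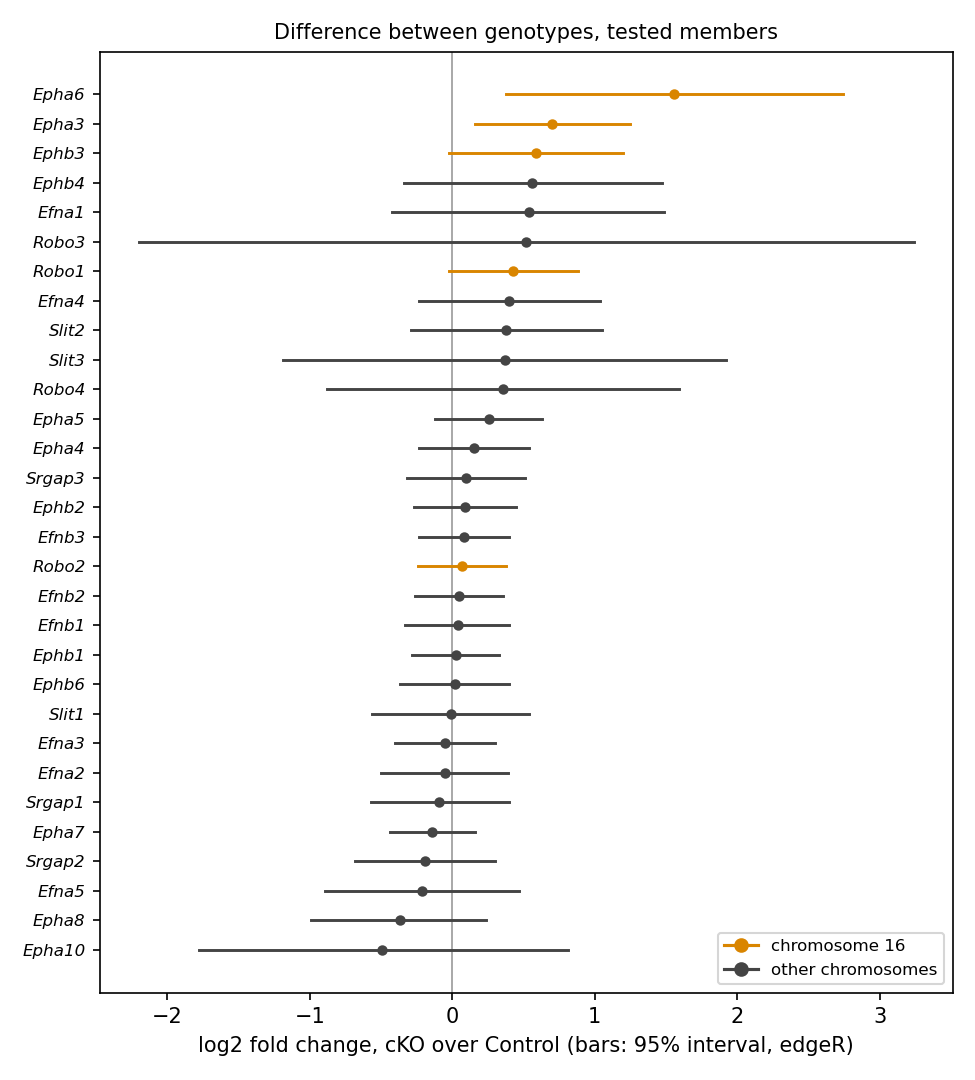
Log2 fold change of cKO over Control for the 30 tested members with its 95% interval from edgeR, ordered by size, with genes of chromosome 16 in orange. Intervals of Epha6 and Epha3 lie above 0 and the other 28 include it; no adjusted p was below 0.39.

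Among the tested receptors, Epha6 and Epha3 had the largest log2 fold changes. Epha6 (ENSMUSG00000055540.16; chromosome 16, 59473846 to 60425894, GRCm39), a receptor for ephrin-A ligands, was read 207 and 138 times in cKO 2 and cKO 3, against 36 and 77 times in Control 2 and Control 3. Scaled, this was 10.9 and 6.04 CPM in cKO libraries and 1.83 and 3.91 CPM in Control libraries, so both cKO libraries lay above both Control libraries. This gave a log2 fold change of 1.56 (SE 0.50, with 2 libraries in each group; 95% interval 0.38 to 2.74; edgeR adjusted p = 0.39). Within each group the libraries still differed by 1.80-fold (cKO) and 2.13-fold (Control). Leaving out 1 library gave log2 fold changes from 1.07 (without cKO 2) to 2.20 (without Control 3). In TPM the Epha6 difference was smaller, at 4.55 and 2.36 TPM in cKO libraries and 1.77 and 1.34 TPM in Control libraries. The log2 fold change was 1.04 and 0.763 on log2 TPM with pseudocounts of 0.1 and 1. Epha3 (ENSMUSG00000052504.8; chromosome 16, 63363897 to 63684538), which also binds ephrin-A ligands, stood at 70.6 and 77.7 CPM in cKO libraries, against 34.7 and 56.3 CPM in Control libraries. Its log2 fold change was 0.70 (SE 0.23; 95% interval 0.16 to 1.25; edgeR adjusted p = 0.399). The groups did not overlap, and the size rested on Control 2: without it the log2 fold change was 0.394.

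The most abundant EphA receptors gave values close to 0. Epha5 stood at 132 and 166 CPM in cKO libraries and 137 and 112 CPM in Control libraries, and the groups overlapped (log2 fold change 0.26, SE 0.16, edgeR adjusted p = 0.598). Epha4, a receptor for both ephrin classes, stood at 106 and 142 CPM in cKO libraries and 107 and 117 CPM in Control libraries. Only cKO 3 was high (log2 fold change 0.15, SE 0.16), and without that library the value was -0.0743. Epha7, which marks cortical areas in a graded way, was slightly lower in both cKO libraries, at 75.9 and 78.1 CPM against 83.2 and 86.7 CPM in Control libraries. Its log2 fold change of -0.14 had a 95% interval from -0.44 to 0.16, so a fall of up to 0.44 on the log2 scale is within the error. Epha8 had a negative value, with 24.9 and 16.8 CPM in cKO libraries and 23.5 and 30.4 CPM in Control libraries (log2 fold change -0.37, SE 0.26; -0.118 without cKO 3). These groups overlapped in CPM, but not in TPM, at 6.78 and 5.26 TPM in cKO libraries and 7.09 and 8.84 TPM in Control libraries.

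The remaining EphA genes were rare. Epha10 stood at 2.26 and 3.68 CPM in cKO libraries and 5.80 and 2.54 CPM in Control libraries (log2 fold change -0.49, SE 0.55). Epha2, which is best known from epithelia and vessels, was not tested because of its low counts. It was read 0 times in both cKO libraries and 21 and 8 times in Control 2 and Control 3. Zero counts over the cKO group allow up to 3 counts, or 0.0717 CPM. The Control level as read was 10.3-fold above that limit, and Control 3 by itself was 5.66-fold above it. The counting error of the Control counts and the spread between animals are left out, so these folds are not lower bounds of a difference. Epha1 had 0 counts in every library, which allows up to 0.0717 CPM in the cKO group and 0.0763 CPM in the Control group.

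The EphB receptors all had a positive log2 fold change, and none passed the test. Ephb3, which acts with Ephb2 in axons of the corpus callosum, stood at 28.1 and 21.9 CPM in cKO libraries and 19.4 and 13.8 CPM in Control libraries. The groups did not overlap, and the log2 fold change was 0.59 (SE 0.26; 95% interval -0.02 to 1.20; edgeR adjusted p = 0.465). Ephb4, a receptor of venous endothelium, stood at 12.6 and 9.98 CPM in cKO libraries and 5.04 and 10.2 CPM in Control libraries. Here Control 2 was low and the other 3 libraries were alike (log2 fold change 0.56, SE 0.39; 0.142 without Control 2). Ephb1 was at 101 and 97.6 CPM in cKO libraries and 91.3 and 104 CPM in Control libraries, and the groups overlapped. Ephb2 was at 57.0 and 66.1 CPM in cKO libraries and 57.2 and 58.5 CPM in Control libraries. Ephb6 was at 85.2 and 69.2 CPM in cKO libraries and 69.9 and 82.6 CPM in Control libraries. The log2 fold changes of these 3 lay between 0.02 and 0.09.

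**Figure D3:**
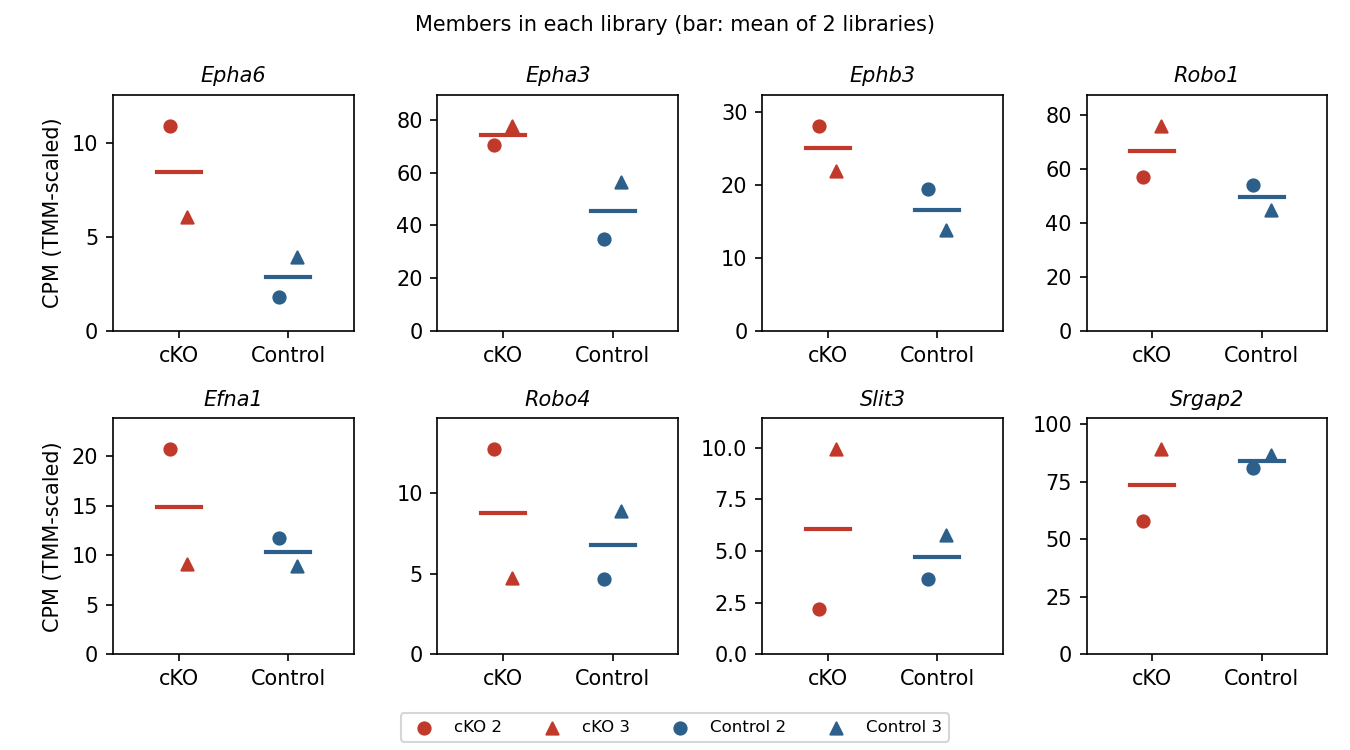
CPM of 8 members in each library, cKO left of Control, with the group mean as a bar and each axis from 0. Epha6, Epha3, Ephb3 and Robo1 are higher in both cKO libraries, whereas Efna1, Robo4, Slit3 and Srgap2 have cKO libraries far apart, and their log2 fold change turns sign when 1 cKO library is left out, for Robo4 also without Control 2.

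No ephrin gene passed the test, and the median log2 fold change of the 8 was 0.04. Efna4 was higher in both cKO libraries, at 14.7 and 13.8 CPM against 9.22 and 12.3 CPM in Control libraries (log2 fold change 0.40, SE 0.27, edgeR adjusted p = 0.624). Efna1, an ephrin of the vascular wall as well as of neurons, was high in 1 library only, at 20.7 CPM in cKO 2 and 9.11 CPM in cKO 3, against 11.7 and 8.88 CPM in Control libraries. Its log2 fold change was 0.54 (SE 0.41) and turned to -0.172 without cKO 2. Efna3 was close to even, at 51.5 and 51.6 CPM in cKO libraries and 52.8 and 54.0 CPM in Control libraries (log2 fold change -0.05, SE 0.15; 95% interval -0.40 to 0.30). Efna2 stood at 44.0 and 45.7 CPM in cKO libraries and 40.1 and 53.0 CPM in Control libraries (log2 fold change -0.05, SE 0.19). Efna5, a repellent for thalamic and cortical axons, stood at 10.4 and 8.14 CPM in cKO libraries and 9.78 and 11.7 CPM in Control libraries (log2 fold change -0.21, SE 0.29).

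Efna1, Efna3 and Efna4 are neighbours on the minus strand of chromosome 3 (GRCm39), with 10424 bases between Efna3 and Efna4 and 32756 between Efna1 and Efna3. Their 95% intervals overlapped widely, from -0.42 to 1.49 for Efna1, -0.40 to 0.30 for Efna3 and -0.23 to 1.04 for Efna4, and no difference among the 3 was tested. Among the transmembrane ephrins, Efnb3 stood at 167 and 187 CPM in cKO libraries and 180.0 and 154 CPM in Control libraries (log2 fold change 0.08, SE 0.13). Efnb2, a ligand of arteries and of cortical progenitors, stood at 111 and 98.5 CPM in cKO libraries and 106 and 96.9 CPM in Control libraries. Efnb1, on chromosome X, stood at 72.8 and 68.5 CPM in cKO libraries and 62.1 and 75.7 CPM in Control libraries. The 95% intervals of these 3 stayed between -0.33 and 0.40 on the log2 scale, so larger changes of ephrin-B RNA lie outside them.

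In the Slit-Robo system, Robo1 came nearest to a difference. Robo1 (ENSMUSG00000022883.12; chromosome 16, 72105194 to 72842983), a receptor of callosal and thalamocortical axons, stood at 57.3 and 76.1 CPM in cKO libraries, against 54.3 and 45.0 CPM in Control libraries. The groups did not overlap, but cKO 2 was only just above Control 2 (log2 fold change 0.43, SE 0.19; 95% interval -0.02 to 0.88; edgeR adjusted p = 0.474). Without cKO 3 it was 0.206, and in TPM the groups overlapped, at 10.7 and 16.9 TPM in cKO libraries and 10.8 and 8.85 TPM in Control libraries. Robo2 was nearly even, at 75.6 and 75.9 CPM in cKO libraries and 73.4 and 71.1 CPM in Control libraries (log2 fold change 0.07, SE 0.13). On the deposited TPM scale Robo2 pointed the other way, with 17.6 and 21.7 TPM in cKO libraries and 21.5 and 24.3 TPM in Control libraries.

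Robo4, the Robo of endothelial cells, was high in cKO 2 at 12.7 CPM and low in cKO 3 at 4.73 CPM, against 4.68 and 8.88 CPM in Control libraries (log2 fold change 0.36, SE 0.53). The sum of endothelial markers did not follow that split, at 242 and 257 TPM in cKO libraries and 244 and 239.9 TPM in Control libraries. Of this sum, Cldn5 gave 112 and 114 TPM in cKO libraries and 129 and 122 TPM in Control libraries. Cldn5 had a negative log2 fold change, while 9 of 10 had a positive one (49.8% of all genes did). In CPM, 6 of 10 were higher in cKO without overlap (22.0% of all genes were) and 1 was lower. The part of vessel content in Robo4, Ephb4 and Efna1 was not tested. Robo3 was at the limit of detection, with 4 and 30 counts in cKO libraries and 17 and 4 counts in Control libraries. Robo3 and Robo4 lie tail to tail on chromosome 9, with 553 bases between their annotated ends. For both, libraries of one group differed more than the groups did.

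The Slit genes had lower levels than Robo1 and Robo2, with means of 7.43 TPM (Slit1), 2.18 TPM (Slit2) and 2.08 TPM (Slit3) against 11.8 TPM (Robo1) and 21.3 TPM (Robo2). Slit1, the neuronal Slit, stood at 25.6 and 34.4 CPM in cKO libraries and 34.2 and 26.3 CPM in Control libraries, so that 1 library of each group was high (log2 fold change -0.01, SE 0.23). Slit2 in CPM was higher in both cKO libraries, at 13.4 and 11.7 CPM against 8.15 and 11.1 CPM in Control libraries (log2 fold change 0.38, SE 0.29, edgeR adjusted p = 0.671; 0.17 without Control 2). In TPM the Slit2 groups overlapped, at 2.05 and 2.64 TPM in cKO libraries and 1.26 and 2.76 TPM in Control libraries. Slit3 had the widest spread of the 3: it stood at 2.21 CPM in cKO 2 and 9.94 CPM in cKO 3, against 3.67 and 5.79 CPM in Control 2 and Control 3. The cKO libraries thus differed by 4.49-fold, and the log2 fold change of 0.37 (SE 0.66) turned to -1.10 without cKO 3. Slit3 was low in the 2 libraries with a high choroid plexus sum, which was mostly Ttr: cKO 2 (448 TPM) and Control 2 (1103 TPM). Meningeal fibroblast markers, another possible source of Slit RNA, summed to 212 and 216 TPM in cKO libraries and 138 and 179 TPM in Control libraries, with 8 of 10 positive. Their part in the Slit values was not tested.

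No Srgap gene passed the test, and in CPM the groups overlapped for all 3. Srgap2, which promotes the maturation of dendritic spines and acts in neuron migration, was low in 1 library only: it stood at 57.8 CPM in cKO 2 and 89.2 CPM in cKO 3, against 81.1 and 86.8 CPM in Control libraries (log2 fold change -0.19, SE 0.21; 0.0886 without cKO 2 and -0.539 without cKO 3). Srgap1 stood at 31.8 and 39.7 CPM in cKO libraries and 42.3 and 33.6 CPM in Control libraries (log2 fold change -0.09, SE 0.21). In TPM Srgap1 was lower in both cKO libraries, at 8.26 and 10.5 TPM against 12.5 and 10.9 TPM in Control libraries. Srgap3 stood at 64.7 and 69.4 CPM in cKO libraries and 71.4 and 54.1 CPM in Control libraries (log2 fold change 0.10, SE 0.18).

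A pattern by position was noticed after the values were seen. The 4 members with the smallest p-values (Epha6, Epha3, Ephb3 and Robo1) and Robo2 are all the tested members on chromosome 16. All 5 had both cKO libraries above both Control libraries in CPM, and their median log2 fold change was 0.59. Of the 506 genes tested on that chromosome, 25.7% lay above in this way, against 22.0% of all genes, and their median log2 fold change was 0.018. The other 25 tested members had 2 such genes, Efna4 and Slit2. Epha6, Epha3, Ephb3 and Robo1 drew notice by their small p-values. That their groups did not overlap follows largely from this, and these contrasts add no support. Robo2 had a log2 fold change of 0.07 (edgeR unadjusted p = 0.622). In TPM the groups overlapped for Robo1 and Robo2. Epha6, Epha3, Robo1 and Robo2 lie within 14.7 Mb of one another (59473846 to 74208713), and Ephb3 lies 38431790 bases from Epha6, the nearest of them.

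**Figure D4:**
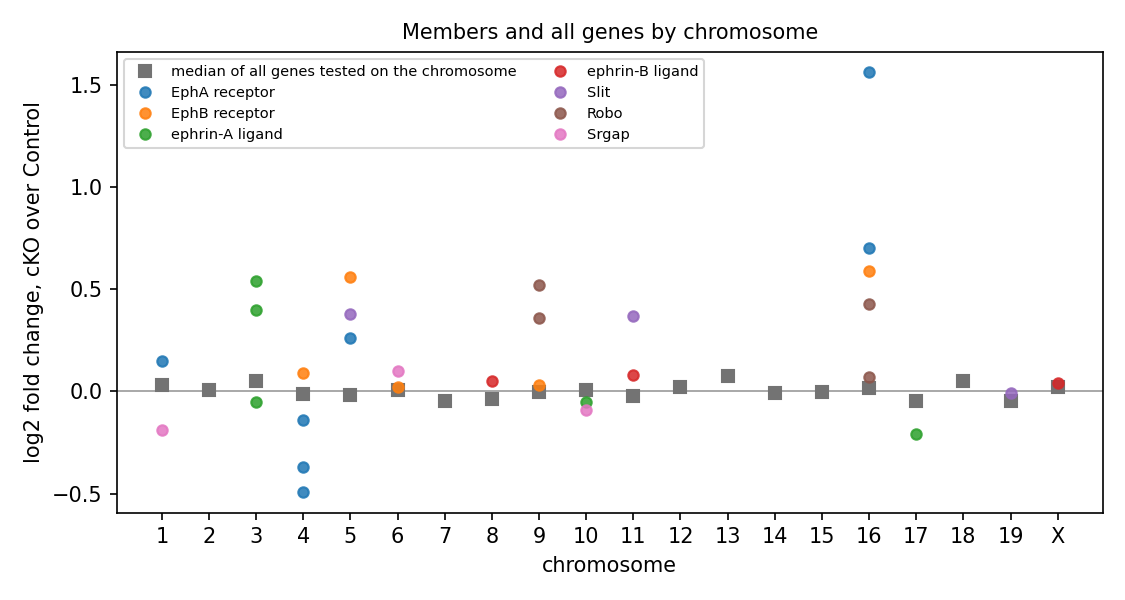
Log2 fold change of cKO over Control of each tested member (coloured points, by family) by chromosome, beside the median of all genes tested on that chromosome (grey squares). The 5 members of chromosome 16 all lie above 0, with a median of 0.59, while the median of all 506 genes there is 0.018. This pattern was noticed after the values were seen.

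Genes that act with these families were taken from 2 lists, one of 24 partners and effectors of Eph and ephrin and one of 26 of Slit and Robo. With edgeR, 0 of the 49 tested passed, and limma-voom called 0. At an unadjusted p below 0.05 there were 6, or 12.2% against 10.9% of all genes, a share near the background. DESeq2 called 2 (4.08%, against 1.09% of all genes), Ngef (adjusted p = 0.00377) and Flrt3 (adjusted p = 0.0202). Of the 24 Eph-ephrin partners, 16 had a positive log2 fold change, with a median of 0.09. Of 25 tested Slit-Robo partners 20 did, with a median of 0.18. Over all genes, 49.8% were positive, with a median of -0.002. In CPM without overlap, 9 Eph-ephrin partners were higher and 5 lower in cKO. Of the Slit-Robo partners 15 were higher and 1 lower. Over all genes, 22.0% were higher and 22.2% lower in this way. No test was run on these counts. The smallest p belonged to Ngef, which encodes ephexin-1, an exchange factor that acts downstream of EphA receptors. Ngef stood at 39.4 and 51.5 CPM in cKO libraries, against 82.3 and 81.1 CPM in Control libraries (log2 fold change -0.84, SE 0.17, edgeR adjusted p = 0.272). Both cKO libraries were well below both Control libraries. Striatal projection neuron markers were lower in the same cKO libraries (117 and 147 TPM, against 459 and 328 TPM in Control libraries), and their part in the Ngef value was not tested.

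The next partners by p lay on both sides. Flrt3, a membrane protein that interacts with Robo1 in thalamic axons, stood at 117 and 123 CPM in cKO libraries and 81.4 and 79.0 CPM in Control libraries (log2 fold change 0.58, SE 0.12, edgeR adjusted p = 0.280). Grin1, an NMDA receptor subunit that associates with EphB receptors, stood at 77.6 and 69.8 CPM in cKO libraries and 108 and 97.5 CPM in Control libraries (log2 fold change -0.48, SE 0.14). Ndnf, a secreted neuron-derived factor, stood at 20.4 and 29.0 CPM in cKO libraries and 13.4 and 14.3 CPM in Control libraries (log2 fold change 0.84, SE 0.25). For Rnd1 the log2 fold change came to -0.58 (SE 0.18), and Sdcbp, which encodes syntenin, a binder of ephrin-B tails, had 0.36 (SE 0.12). These 6 genes were picked for the smallest p-values among the partners. That their groups did not overlap in CPM follows largely from this choice and adds no support. Over all genes tested, 22.0% were higher and 22.2% lower in cKO without overlap. No edgeR adjusted p of the 6 was below 0.272.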

How the data were processed

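Per the labels' protocols, TRIzol RNA was DNase-treated before SMART-Seq v4 library preparation, a low-input method primed on poly(A) that keeps no strand information. The authors deposited estimated counts per gene and TPM for each library. DRAGEN and build GRCm39 were used, per the submitters' processing notes; no version or setting of it is given in the sources used here. In each library 12.0% to 13.5% of rows had a fractional count, among them 3 members in at least 1 library. Deposited gene lengths (in bases) entered only the apparent transcript length.

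Counts were rounded to whole numbers. The default filterByExpr of edgeR 4.0.16 (R 4.3.3) left 17017 of 55414 genes. Libraries were scaled with TMM and genotypes compared with edgeR's quasi-likelihood test, adjusted over all genes tested (Benjamini-Hochberg, threshold 0.05). SE is the log2 fold change over the square root of F. Limits for counts of 0 cover the counting error of those counts only. The test was checked on simulated counts. Libraries of a group differed by more than repeated sequencing of 1 library would give (chi-square per degree of freedom 29.5 for cKO and 13.3 for Control). By itself this does not show that they came from different animals. DESeq2 1.42.0, limma 3.58.1 (voom, and log2 TPM with a pseudocount of 0.1 or 1), other scalings and filters, a replicate block and leaving out each library were alternatives. Members, gene lists and tests were chosen with earlier results of these data known. Values are given per library for the 10 members with the smallest p and the 3 most abundant of the Eph receptors, ephrins, Slits, Robos and Srgaps; other members follow after their values were seen, as do the 4 promoters. Marker lists are given by counts and summed levels. Naming up to 3 genes of each had been planned and was done only in part, with genes named after their values were seen. All 118 list genes but 1, matched by a RefSeq synonym, matched by symbol. Promoters came from RefSeq (GRCm38.p6) and no coordinate was converted.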

Additional observations from a re-analysis of the deposited data

How the results depend on the processing

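No member passed the threshold under any of the 14 alternatives. Of the 22 members with the smallest p or the highest levels, 11 kept their sign throughout, Epha6 between 0.763 and 2.20 and Epha3 between 0.394 and 1.09 on the log2 scale. The other 11 turned in at least 1 alternative. Over the fits that left out 1 library, log2 fold changes ran from -0.172 to 1.01 (Efna1), -0.244 to 0.157 (Efna2), -0.0281 to 0.201 (Efnb3), -0.0743 to 0.348 (Epha4), -0.519 to 0.901 (Robo4), -0.241 to 0.188 (Slit1), -1.10 to 1.07 (Slit3), -0.257 to 0.0893 (Srgap1), -0.539 to 0.0886 (Srgap2) and -0.0943 to 0.307 (Srgap3). Slit1 was at 0.0277 with upper-quartile scaling. On log2 TPM with pseudocounts of 0.1 and 1, Robo2 was at -0.221 and -0.212, and Slit3 at -0.0999 with 0.1. CPM and TPM part where the ratio of counts to TPM differs between libraries, and that ratio is given below as apparent transcript length. Why it differed was not tested. The members' median stayed between 0.042 and 0.127, the highest with upper-quartile scaling, which moved the median of all genes to 0.038. With TPM in place of CPM, chosen after seeing the data, 5 members were higher and 3 lower without overlap, of which 4 and 0 were so on both scales.

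Over all genes, 1 was higher and 7 lower in cKO. DESeq2 called 80 and 105, no filter 21 and 37, a mean CPM of at least 1 gave 2 higher, limma-voom 3 higher, and log2 TPM 23 higher (pseudocount 0.1) or 33 higher and 14 lower (pseudocount 1). Leaving out a library gave 0 higher and 0 to 2 lower. With the replicate block 1 gene was higher and 6 lower, and 0 members passed. Numbers were not taken to pair libraries in the main fit. The replicate 2 libraries of both groups showed a correlation of deviations of 0.0136 over all genes tested. That value cannot exclude a factor shared by a few genes. Choroid plexus sums were high in both replicate 2 libraries (448 and 1103 TPM) and low in both replicate 3 libraries (9.83 and 18.1 TPM). With 2 libraries a group, members below 10 TPM are the least certain: their cKO libraries differed by a median of 1.41-fold and their Control libraries by 1.50-fold, against 1.12-fold and 1.17-fold for the 18 more abundant members.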

Other observations

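The ratio of counts to TPM gives an apparent transcript length per gene and library, which moves when reads fall on shorter or longer transcripts of a gene. For 29 members with at least 30 counts in every library, the highest over the lowest of the 4 values had a median of 1.09, the same as for the 12402 genes of the table with that many counts and at least 1000 bases. Epha6 had the highest ratio, 2.81: its apparent length was 3911 and 4707 bases in cKO 2 and cKO 3, against 1802 and 5070 bases in Control 2 and Control 3. The short value belongs to the library with 36 Epha6 counts. Slit3 came next, at 6842 and 4350 bases in cKO 2 and cKO 3 and 5727 and 4093 bases in Control 2 and Control 3, followed by Slit2, at 10663 and 8155 bases in cKO libraries and 11318 and 6988 bases in Control libraries. For both Slits the replicate 2 libraries gave the longer values in both groups. Robo2 was longer in both cKO libraries, at 7013 and 6424 bases against 5967 and 5080 bases in Control libraries, and Srgap1 likewise, at 6282 and 6934 bases against 5904 and 5331 bases. Other members were shorter in both cKO libraries. Epha4 had 5763 and 5484 bases there, against 6317 and 6169 in Control libraries, and Robo4 3744 and 3984, against 4546 and 4703. The highest over the lowest value was 1.38 for Robo2 and 1.30 for Srgap1, below the 90th percentile of 1.43 over the 12402 genes. For Robo2 this is the same difference that parted CPM from TPM, not a separate observation. No test was run on these lengths, and the files do not give counts per transcript.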
